A study of Mus musculus with 6 samples.

Results

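The calcium/calmodulin-dependent protein kinases (CaM kinases) were followed as a family of 10 genes, taken from a count table of 23366 mouse genes in 6 libraries. They are the CaMKII subunit genes Camk2a, Camk2b, Camk2d and Camk2g, the CaMKIV gene Camk4, the CaMKI genes Camk1, Camk1d and Camk1g, and the genes of the upstream kinases that activate CaMKI and CaMKIV, Camkk1 and Camkk2. Camk2a was selected on its higher counts in the knockdown of this same comparison, and the other 9 genes were taken by family name. The values of Camk2a are therefore given as a description with no test. All 10 genes passed the filter on low counts, which left 15731 genes.

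The libraries were made from cultured granule neurons of the cerebellum of C57BL/6 mice at postnatal day 7, purified on a Percoll gradient from the pooled cerebella of a litter. Both groups were infected with lentivirus on day 1 in culture. The control group (n = 3) received the empty pLKO.1 vector and the knockdown group (n = 3) the same vector carrying a hairpin against Kdm6b, a demethylase of lysine 27 on histone H3, so each group also carries a viral vector. The growth factor BDNF is said to have been added to some cultures, and the labels do not say to which. The study asked how lowering Kdm6b alters gene expression while these neurons mature.

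CaM kinases are serine/threonine kinases that calmodulin switches on when calcium enters a cell. CaMKII assembles into large holoenzymes, phosphorylates its own subunits and is a main protein of excitatory synapses. CaMKIV acts largely in the nucleus, where it phosphorylates the transcription factor CREB, and it is known for its abundance in cerebellar granule neurons. CaMKI and CaMKIV need phosphorylation by a CaMK kinase for full activity.

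Gene counts per library ranged from 50326298 to 88214069. Kdm6b was at 257, 146 and 170 CPM (read counts normalised to library size with TMM scaling) in control replicates 1 to 3 and at 88.8, 63.3 and 79.8 CPM in knockdown replicates 1 to 3, so all knockdown libraries lay below all controls. The 13 markers of granule neurons summed to 6147 to 8162 CPM in controls and 6025 to 8367 CPM in knockdowns. Only 1 of them, Etv1, was called once the replicate number was fitted as a block, and it fell. The sum hides shifts both ways that did not pass. Slc17a7 was lower without overlap (means 479 and 207 CPM, with the block edgeR adjusted p = 0.0562). Reln was higher without overlap (means 392 and 625 CPM, with the block edgeR adjusted p = 0.101). Libraries that share a replicate number deviated alike from their group means, so values from the fit with this block stand beside those without it wherever a call differs. The submitters call the replicates biological without saying that they were separate cultures, and p-values measure only the spread between these samples, which may be technical.

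In control neurons Camk4 had by far the highest level per length of the family. Levels between genes were compared as CPM per kilobase of annotated exon. Camk4 stood at 313, 372 and 310 CPM per kb in control replicates 1 to 3 (332 ± 34.6, SD, n = 3), above 99.7% of the 14718 tested genes with an annotated length. Camk2b, the beta subunit of CaMKII, which also binds actin, followed at 57.3, 66.4 and 41.9 CPM per kb (55.2 ± 12.3, SD, n = 3). Camkk2, the beta isoform of the CaMK kinase, came next at 36.3, 37.4 and 34.5 CPM per kb. These 3 genes did not overlap each other or any other member in the control libraries.

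The middle of the order was held by Camkk1 (13.8 ± 3.46), Camk2g (12.8 ± 1.46) and Camk2d (9.45 ± 0.634 CPM per kb, SD, n = 3). Camkk1 and Camk2g overlapped in the controls, so their order is not resolved. Camk1d (4.16 ± 1.06) and Camk1 (3.90 ± 0.458 CPM per kb, SD, n = 3) also overlapped. Camk1g (0.799 ± 0.141) and Camk2a (0.418 ± 0.123 CPM per kb, SD, n = 3) came last, and Camk2a exceeded 13.7% of tested genes. The order depends on the length used: per longest annotated transcript the first 3 places were the same, but Camk2d moved to rank 4 at 38.5 CPM per kb, since the exons of all its transcripts add up to 22.5 kb. Counts and lengths come from different annotations, matched by name alone.

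**Figure D1:**
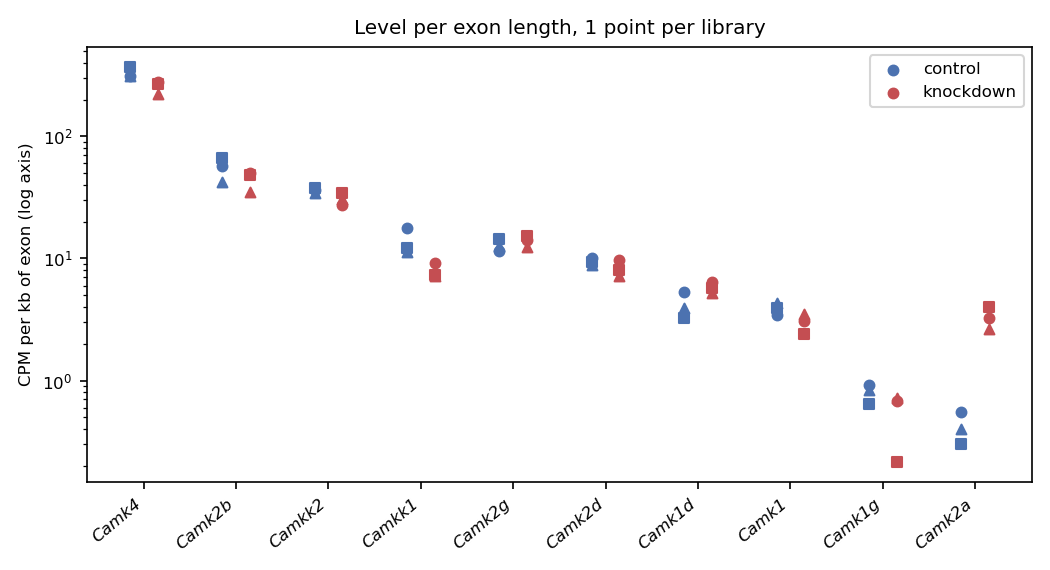
Level of each CaM kinase gene per kilobase of annotated exon (log axis), ordered by the control mean, with circle, square and triangle for replicates 1, 2 and 3. Camk4 led at 332 CPM per kb in controls, and Camk2a moved from the tenth place in controls to the eighth in knockdowns.

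Camk2a encodes the alpha subunit of CaMKII, the leading isoform of forebrain neurons. It was the lowest member in controls per kilobase of exon, though not by CPM, and much higher in the knockdown. It had 297, 113 and 158 counts in control replicates 1 to 3 and 2161, 1621 and 1356 counts in knockdown replicates 1 to 3. As CPM these were 4.09, 2.26 and 3.01 against 24.2, 30.1 and 19.8. The lowest knockdown library thus lay far above the highest control library. The group means differed 7.91-fold, and the fitted log2 fold change was 2.98 (SE 0.29) without and 2.99 (SE 0.27) with the block. The log2 ratio was 2.56, 3.73 and 2.72 in pairs 1, 2 and 3, pair 2 having both the lowest control and the highest knockdown level.

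Even at that level Camk2a stayed a small part of CaMKII transcripts. Per exon length the 4 subunit genes summed to 77.9 ± 13.4 CPM per kb in controls and 69.9 ± 11.1 CPM per kb in knockdowns (SD, n = 3). Camk2a made up 0.690%, 0.335% and 0.632% of that sum in control replicates 1 to 3 and 4.18%, 5.37% and 4.64% in knockdown replicates 1 to 3. Camk2b took 72.1%, 73.4% and 65.8% in controls and 65.2%, 63.8% and 61.1% in knockdowns, so it was the main subunit in all 6 libraries. The level of Camk2b was 105, 219 and 104 times that of Camk2a in control replicates 1 to 3 and 15.6, 11.9 and 13.2 times in knockdown replicates 1 to 3. Camk2g (16.7% ± 2.73 and 20.0% ± 1.78) and Camk2d (12.3% ± 1.78 and 11.9% ± 1.06, SD, n = 3 each) shared the rest, and their control and knockdown ranges overlapped. With the longest transcript as length the Camk2a share was 0.351% ± 0.118 in controls and 3.09% ± 0.428 in knockdowns (SD, n = 3).

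**Figure D2:**
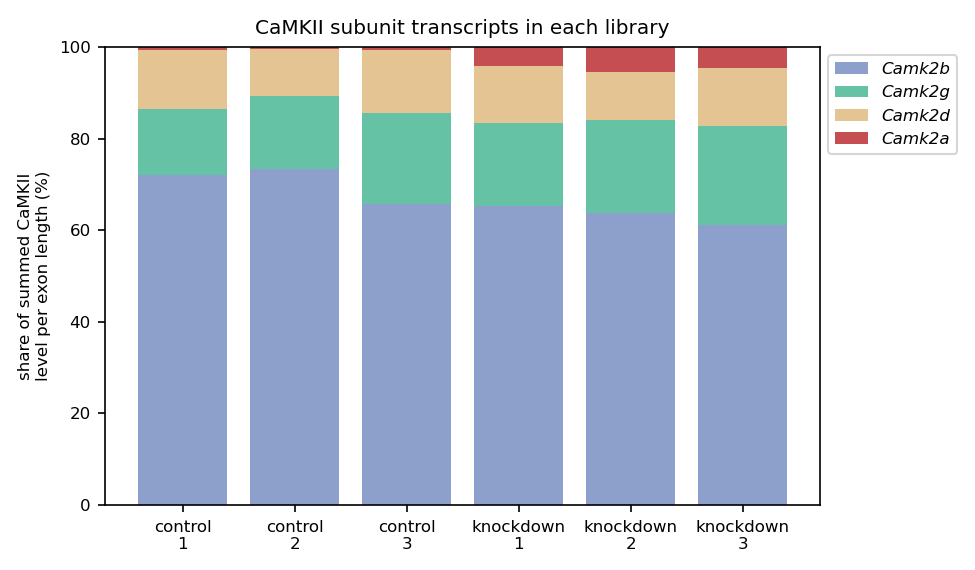
Share of each CaMKII subunit gene in the summed level of the 4 genes per exon length, 1 bar per library, in percent. Camk2b made up 61.1% to 73.4% in every library, and the Camk2a segment widened from at most 0.690% in controls to at least 4.18% in knockdowns.

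The other CaMKII genes did not pass the test. Camk2b was at 523, 606 and 383 CPM in control replicates 1 to 3 and 461, 437 and 319 CPM in knockdown replicates 1 to 3. Each knockdown library was below its control partner, but the groups overlapped (log2 fold change −0.31, SE 0.23, edgeR adjusted p = 0.650; with the block −0.30, SE 0.09, edgeR adjusted p = 0.0970). Camk2d, the delta subunit, which is broadly expressed, was at 228, 211 and 199 CPM in controls, against 217, 180 and 162 CPM in knockdowns. Its groups overlapped as well (−0.19, SE 0.14, edgeR adjusted p = 0.656; with the block edgeR adjusted p = 0.149). Camk2g, the gamma subunit, was at 73.4, 91.9 and 80.6 CPM in controls, against 89.9, 97.1 and 79.4 CPM in knockdowns. It was the 1 member whose pairs differed in sign (log2 fold change 0.12, SE 0.13, edgeR adjusted p = 0.781; with the block edgeR adjusted p = 0.381).

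Of the 2 upstream kinase genes, Camkk1 fell in the fit with the block. Camkk1, the alpha isoform, was at 66.3, 45.8 and 42.4 CPM in control replicates 1 to 3 and 34.5, 27.2 and 26.8 CPM in knockdown replicates 1 to 3. All knockdown libraries lay below all controls, control replicate 1 stood above the other 2 controls, and the mean was 42.7% lower (51.5 ± 12.9 and 29.5 ± 4.34 CPM, SD, n = 3). The log2 ratios of pairs 1 to 3 were −0.94, −0.75 and −0.66. Without the block the log2 fold change was −0.80 (SE 0.21, edgeR adjusted p = 0.324) and with it −0.78 (SE 0.08, edgeR adjusted p = 0.0282). The blocked call was lost without replicate 1 (−0.71, edgeR adjusted p = 0.105) as well as without replicate 2 (−0.82, edgeR adjusted p = 0.0521), and DESeq2 without the block made it (−0.82, DESeq2 adjusted p = 0.0263).

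Camkk2 was at 397, 409 and 376 CPM in controls, against 301, 374 and 332 CPM in knockdowns. The highest knockdown library lay just under the lowest control, and the difference did not pass (log2 fold change −0.23, SE 0.13, edgeR adjusted p = 0.566; with the block edgeR adjusted p = 0.139). The CPM of Camkk2 was 5.99, 8.93 and 8.88 times that of Camkk1 in control replicates 1 to 3 and 8.73, 13.7 and 12.4 times in knockdown replicates 1 to 3. This ratio compares counts and not levels per length.

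Sequences around Camkk1 are shown because it was the member that passed with the block. The hairpin strand given in the labels is gttcgttACAAGTGagaactc, with capitals for its bases 8 to 14, a stretch that earlier results of these data had pointed to. The letters ACAAGTG occur in the longest annotated 3′ UTR (GENCODE M21, build GRCm38, transcript strand) of 2 of the 10 family genes, Camkk1 and Camk2b, each once, against 12.5% of the 14028 tested genes searched. Both sites are printed with 10 bases on either side and the match in capitals.
Camkk1: tgattgtagcACAAGTGaacaaactcc
Camk2b: gcaggtccatACAAGTGtttgatgaaa
The 3′ UTR of Camk2a (3372 bases) and those of the other 7 members hold no such match. Among all genes searched, those with ACAAGTG were more often called lower. The stretch was chosen with earlier results of these same data known, so these counts are a description and not a test. Lengths of 3′ UTRs were not matched between genes with and without it. With the block 243 of the 1755 genes with it were called lower and 22 higher. Of the 12273 genes without it 566 were called lower and 357 higher. The median log2 fold change with the block was −0.14 for genes with it and 0.02 for those without. The printed sites are matches of letters and not measured binding, and their part in the values of Camkk1 and Camk2b was not tested.

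The promoter windows of the family (250 bases before to 50 bases after the start, RefSeq, build GRCm38.p6) differed widely in CG dinucleotides, the letters read by enzymes of DNA methylation and dense in CpG islands, where Polycomb and H3K27 methylation often act. Of 7 members with a printed window, Camk2b had 51 CG, Camkk2 42, Camkk1 36 and Camk2d 31, while Camk1 had 15 and Camk1g 1. Camk1d has 2 windows with 29 and 5 CG. The median over 32851 windows was 7, and 94.6% held at least 1 CG. Camkk1, the called member, and Camk1g, the window with fewest, are shown with CG in capitals. The Camkk1 window is chr11:73018738-73019037 on the plus strand, taken at a start that lies inside the RefSeq span of the gene (from 73016043), and that of Camk1g chr1:193370233-193370532 on the minus strand.
Camkk1: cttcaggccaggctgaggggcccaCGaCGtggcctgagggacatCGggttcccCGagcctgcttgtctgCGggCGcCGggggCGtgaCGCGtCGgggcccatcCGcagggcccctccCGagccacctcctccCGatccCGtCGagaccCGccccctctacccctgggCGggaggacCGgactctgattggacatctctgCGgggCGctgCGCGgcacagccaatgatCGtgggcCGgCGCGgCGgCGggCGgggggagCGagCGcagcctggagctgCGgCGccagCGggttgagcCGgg
Camk1g: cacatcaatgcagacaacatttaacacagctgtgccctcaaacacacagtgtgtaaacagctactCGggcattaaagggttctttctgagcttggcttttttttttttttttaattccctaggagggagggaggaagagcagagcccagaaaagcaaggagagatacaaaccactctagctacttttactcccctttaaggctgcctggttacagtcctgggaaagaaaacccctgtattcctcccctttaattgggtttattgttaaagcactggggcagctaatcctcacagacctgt
The Camkk1 window held more CG than 93.8% of windows and that of Camk1g more than 5.43%. H3K27 methylation was not measured in these libraries.

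Camk4, the member with the highest level, was at 1022, 1211 and 1010 CPM in control replicates 1 to 3 and 916, 879 and 720 CPM in knockdown replicates 1 to 3. The groups did not overlap, with means of 1081 ± 113 and 838 ± 104 CPM (SD, n = 3). The difference did not pass the test (log2 fold change −0.37, SE 0.17, edgeR adjusted p = 0.510; blocked fit −0.37, SE 0.11, edgeR adjusted p = 0.0934). In GENCODE M21 72 exon bases of Camk4 overlap 2310026I22Rik on the opposite strand, and the labels do not say whether counting used strand.

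Among the CaMKI genes followed, kinases of the cytosol with roles in neurite growth, the directions were mixed and none passed. Camk1d was at 39.4, 24.0 and 29.4 CPM in control replicates 1 to 3 and 47.5, 42.3 and 38.4 CPM in knockdown replicates 1 to 3. It was higher in the knockdown of every pair, with control replicate 1 above knockdown replicate 3 (log2 fold change 0.47, SE 0.20, edgeR adjusted p = 0.493; with the block 0.49, SE 0.13, edgeR adjusted p = 0.0741). Camk1 was at 20.5, 23.4 and 26.0 CPM in controls, against 18.2, 14.3 and 20.9 CPM in knockdowns. Its groups overlapped narrowly (−0.39, SE 0.19, edgeR adjusted p = 0.517; with the block edgeR adjusted p = 0.111), and 232 of its exon bases overlap Ogg1 on the opposite strand. Camk1g had 185, 89 and 120 counts in controls, against 168, 32 and 136 counts in knockdowns. Its low value in knockdown replicate 2 (0.594 CPM) set it apart from the other 5 libraries, which ran from 1.78 to 2.55 CPM (−0.56, SE 0.49, edgeR adjusted p = 0.704; with the block edgeR adjusted p = 0.203).

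**Figure D3:**
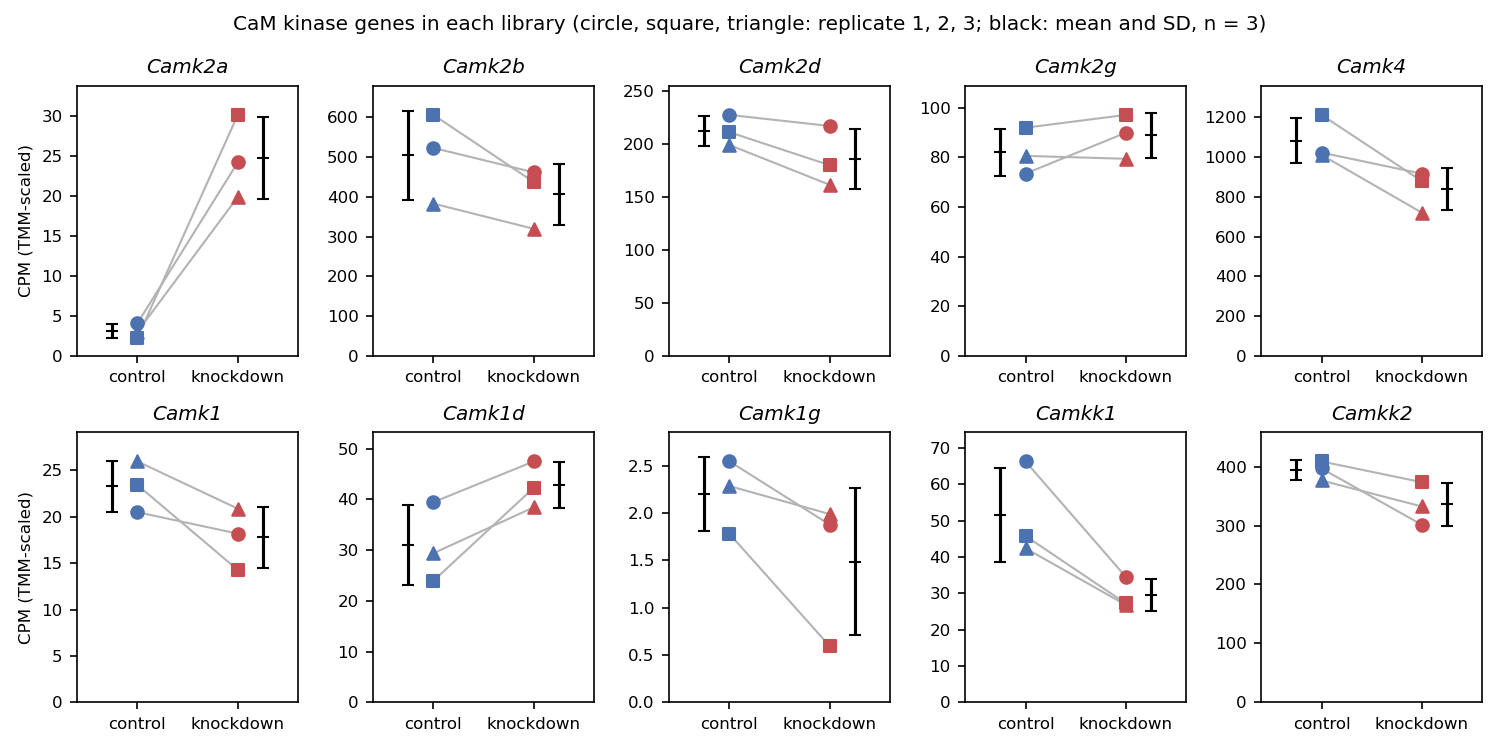
CPM of the 10 CaM kinase genes in each library (linear axes from 0), with a gray line between control and knockdown of the same replicate number and group means with SD (n = 3) drawn in black. Camk2a, Camkk1, Camk4 and Camkk2 had groups that did not overlap.

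Across the 9 genes other than Camk2a, none was called without the block, where 1 of 15731 genes (0.00636%) was. Also without it, 1 of the 9 had an unadjusted p under 0.05 (edgeR), as did 1661 of all 15731 genes. In the same setting limma-voom called none of the 9 and DESeq2 called Camkk1. In the blocked fit 6 of the 9 had an unadjusted p under 0.05 (edgeR), and the share of all genes there was not taken. With the block 1 of the 9 fell and 0 rose, against 7.98% of all genes called, 5.4% lower and 2.58% higher. Scaling by library totals in place of TMM turned that split over all genes from 406 higher and 850 lower to 723 higher and 553 lower, while the 1 family call was again a lower Camkk1. Groups did not overlap in 3 of the 9 genes, all lower in the knockdown (Camkk1, Camk4 and Camkk2), against 7.44% of all genes lower and 9.21% higher. Of the 9, 7 were lower in all 3 pairs, against 28.6% of all genes, and 1 was higher in all 3, against 31.7%. The median log2 fold change of the 9 was −0.31 and that of all genes tested 0.02. An exact two-sided permutation test on 1 gene with 3 against 3 libraries cannot give a p below 0.1.

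**Figure D4:**
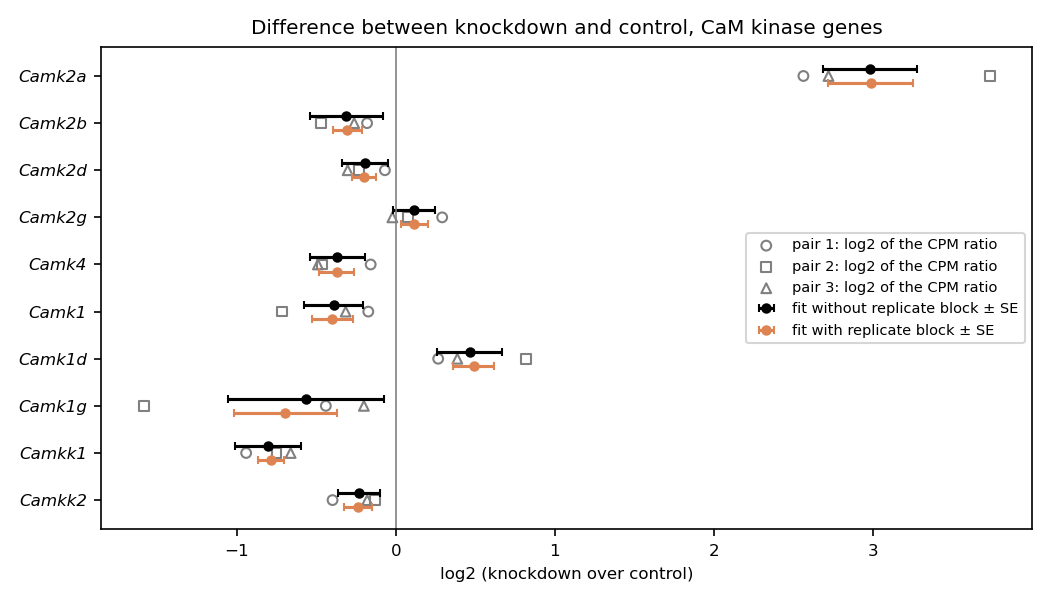
Log2 difference between knockdown and control for each CaM kinase gene, from the fits without and with the replicate block (points with SE) and from each pair (open symbols). Camk2a stands at 2.98, Camk1d and Camk2g lie above 0, and the other 7 lie below 0.

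The genes that act with CaM kinases were read from 10 lists of 57 genes, 56 of them tested. With the block 4 of 56 rose and 0 fell, against 2.58% higher and 5.4% lower among all genes. Without it 0 were called by edgeR (5 had an unadjusted p under 0.05, as did 1661 of all 15731 genes), 0 by limma-voom and 3 by DESeq2. The 4 risen genes act on calmodulin, CaMKII or calcineurin, or resemble CaM kinases. The median log2 fold change of the 56 was 0.08, against 0.02 for all genes tested, with and without the block alike.

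Both genes of the CaMKII inhibitor proteins, small proteins that bind the active kinase and block it, were higher in all knockdown libraries than in all controls. Of the 56 tested genes of the lists 8 were higher without overlap and 3 lower, against 9.21% and 7.44% of all genes. Camk2n2 was at 72.9, 61.7 and 72.7 CPM in control replicates 1 to 3 and 118, 99.7 and 95.2 CPM in knockdown replicates 1 to 3. It rose in the blocked fit (0.59 on the log2 scale, SE 0.09, edgeR adjusted p = 0.0373) but not without it (0.59, SE 0.13, edgeR adjusted p = 0.261). Camk2n1 was at 328, 191 and 243 CPM in controls, against 396, 361 and 337 CPM in knockdowns. It did not pass (with the block 0.55, SE 0.14, edgeR adjusted p = 0.0724).

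Of 4 small proteins that bind calmodulin or hold it at the membrane 1 rose. Gap43, a protein of growing axons, was at 241, 83.1 and 152 CPM in control replicates 1 to 3 and 601, 194 and 226 CPM in knockdown replicates 1 to 3. It was higher in each pair while the groups overlapped (blocked fit 1.04 on the log2 scale, SE 0.17, edgeR adjusted p = 0.0403; without it edgeR adjusted p = 0.534).

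Of 10 genes listed as other kinases of the CaMK group and related proteins 1 rose. It was the pseudokinase gene Camkv, which encodes a synaptic vesicle protein. This list also holds Pnck and Caskin1. Camkv was at 6.33, 15.9 and 5.14 CPM in control replicates 1 to 3 and 11.4, 27.7 and 16.5 CPM in knockdown replicates 1 to 3, with overlapping groups and replicate 2 highest in each (with the block 1.10, SE 0.21, edgeR adjusted p = 0.0468; without it edgeR adjusted p = 0.538). Of 7 genes of calcineurin, the calmodulin-dependent phosphatase, and its regulators 1 rose. Rcan1, a calcineurin inhibitor that calcineurin signalling induces, was at 29.2, 24.8 and 26.4 CPM in controls, against 50.0, 53.2 and 38.1 CPM in knockdowns, without overlap (with the block 0.80, SE 0.13, edgeR adjusted p = 0.0392; without it edgeR adjusted p = 0.216). With the block the calls of Camk2n2, Gap43, Camkv and Rcan1 were each lost without replicate 1 (edgeR adjusted p from 0.117 to 0.124) and without replicate 2 (0.0616 to 0.100).

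No other list had a called member. Of the 2 CaMK phosphatase genes the smaller p was that of Ppm1e (with the block 0.46, SE 0.11, edgeR adjusted p = 0.0691). Among 6 subunits of AMP-activated kinase, a substrate of CaMKK2, it was that of Prkaa2 (0.35, SE 0.10, edgeR adjusted p = 0.0874). Crtc3 was at 48.9, 55.7 and 48.7 CPM in controls, against 40.5, 38.7 and 39.6 CPM in knockdowns. Of 8 genes of CREB and its coactivators the nearest to the threshold was Crtc3 (−0.37, SE 0.08, edgeR adjusted p = 0.0606). Among 4 class IIa histone deacetylases, which CaM kinases drive out of the nucleus, it was Hdac4 (0.27, SE 0.11, edgeR adjusted p = 0.159), whose exons overlap a gene on the opposite strand. Among 10 tested CaMKII partners and substrates at synapses it was Tiam1, an activator of Rac (−0.55, SE 0.11, edgeR adjusted p = 0.0556).

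**Figure D5:**
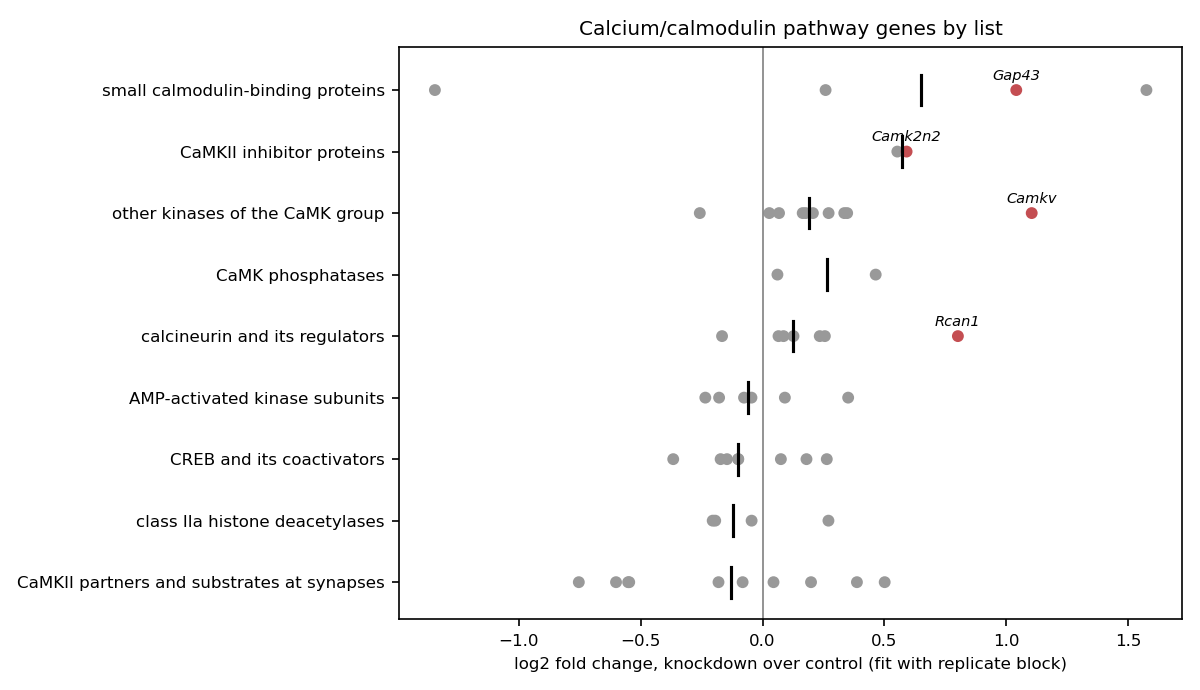
Log2 fold change from control to knockdown in the blocked fit of tested genes that act with CaM kinases, 1 row for each of 9 lists, with list medians as black bars. The 4 red points, Gap43, Camk2n2, Camkv and Rcan1, passed an adjusted p of 0.05, and the gray points did not.

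The genes whose profile was most like that of Camk2a were sought over the 6 libraries among 11780 other genes whose mean reached 5 CPM. By Pearson correlation of log2 CPM they were Rab36, a small GTPase (0.995), Ick, a kinase of the primary cilium (0.991), Oscp1 (0.991), the autophagy gene Atg12 (0.990) and Aebp2, a cofactor of Polycomb repressive complex 2 (0.989). These correlations describe 6 libraries that fall into 2 groups, so any gene that differed between the groups scores high. Rab36 was at 11.9, 8.47 and 10.0 CPM in control replicates 1 to 3 and 21.3, 22.9 and 21.2 CPM in knockdown replicates 1 to 3, a smaller difference than that of Camk2a. Of the other CaM kinase genes compared, which leaves out Camk1g as under the minimum, 0 were among the 100 most alike, and Camk1d ranked 793.

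Camk2a is also known from Purkinje cells and from excitatory neurons of the forebrain, so markers of both were read. In bulk RNA fewer cells of a type and less RNA per cell cannot be told apart. Of 12 Purkinje markers the defining genes Pcp2 (0 to 2 counts), Skor2 (0 to 5) and Ppp1r17 (1 to 8) were near 0 in every library. The 12 summed to 411 to 512 CPM in controls and 375 to 403 CPM in knockdowns. With the block 2 of 9 tested fell (Car8 and Gad1, the latter also a gene of interneurons) and 0 rose. Rgs8, a large part of that sum, was at 234, 120 and 121 CPM in controls, against 263, 158 and 116 CPM in knockdowns. Pcp4 (Purkinje cell protein 4) was read among the calmodulin-binding proteins and is not in these 12. It was at 55.1, 5.96 and 39.2 CPM in controls, against 96.0, 72.1 and 61.5 CPM in knockdowns, higher without overlap. It did not pass (with the block 1.57, SE 0.65, edgeR adjusted p = 0.164). Of 8 forebrain markers Fezf2 (0 to 2 counts) and Emx1 were too low to test and the other 6 did not pass. Emx1 had 11, 3 and 1 counts in control replicates 1 to 3 and 40, 27 and 9 counts in knockdown replicates 1 to 3, higher in each pair, as were Neurod2 and Tbr1. The sum of the 8 was 162 to 357 CPM in controls and 234 to 382 CPM in knockdowns. Most of it was Neurod2 alone in every library, so it is mainly the level of 1 gene and no measure of forebrain-type cells. Which cells of these granule neuron cultures express Neurod2 was not tested. Neurod2 was at 257, 140 and 155 CPM in control replicates 1 to 3. In knockdown replicates 1 to 3 it was at 287, 272 and 190 CPM. The part of forebrain-type cells in the level of Camk2a was not tested.

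Markers of other cells were also read. Of 10 pericyte and fibroblast markers 7 fell and 0 rose with the block, and their sum was 13255 to 26708 CPM in controls and 4413 to 12132 CPM in knockdowns. The 10 microglia markers summed to 43.9 to 130 CPM in controls and 11.4 to 54.1 CPM in knockdowns. The 1 called, Tmem119, fell and gave 42.7 of the 43.9 CPM of control replicate 2, where Cx3cr1 had 0 counts. Of 10 astrocyte and Bergmann glia markers 1 fell, and their sum was lower in pairs 1 and 2 (1217 to 677 CPM and 1581 to 973 CPM) and higher in pair 3 (3240 to 3392 CPM). Of 8 endothelial markers 0 were called, of 9 interneuron markers 1 rose and 1 fell, and of 10 oligodendrocyte markers 2 fell (257 to 1288 and 176 to 972 CPM). The part of these cells in the lower values of Camkk1, Camk4 and other members was not tested.

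In RefSeq build GRCm38.p6 Camk2a lies on chromosome 18 from 60925307 to 60988152 and Camk4 on the same chromosome from 32934941 to 33195767. Camkk1 (73016043 to 73042073) and Camk2b (5969629 to 6066357) lie on chromosome 11. Camk2d lies on chromosome 3 (126595487 to 126846326), Camk2g on chromosome 14 (20734873 to 20794157) and Camkk2 on chromosome 5 (122718380 to 122779522). The CaMKI genes are on chromosomes 6 (Camk1, 113334124 to 113343922), 2 (Camk1d, 5293457 to 5714860) and 1 (Camk1g, 193346346 to 193370355). The exons of Camk2a, Camk2b, Camk2d, Camk2g, Camk1d, Camk1g, Camkk1 and Camkk2 overlap those of no other gene in GENCODE M21.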

How the data were processed

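Stranded mRNA libraries of 3 control and 3 knockdown samples were read as 50 bp single ends, per the labels' protocols. The deposited file holds raw counts of reads per gene. Trimmomatic, TopHat2, HTSeq, edgeR, DESeq2 and build mm9 are named, per the submitters' processing notes; their versions, the annotation and the strand setting are not given in the sources used, nor is which cultures received BDNF. Tally rows without a gene (reads outside genes 12.1% to 15.0%, ambiguous 0.406% to 0.509%, not unique 16.0% to 19.3% of all counts) were left out.

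All genes were fitted with edgeR 4.0.16 in R 4.3.3 (filterByExpr with minimum count 10 and minimum total 15, TMM, quasi-likelihood test, Benjamini-Hochberg over 15731 genes at 0.05), without a replicate term. Standard errors were taken as |log2 fold change|/√F. CPM are TMM-scaled. Deviations from group means correlated across genes at 0.772, 0.709 and 0.701 between libraries of the same replicate number, and at −0.532 to −0.135 otherwise; this pairing comes from the data, not from the labels, and the fit with the replicate block is printed where it bears on a call. No 2 libraries of a group agreed within sampling noise.

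The members, the lists, the tests and the hairpin stretch were chosen with earlier results of these data known. Named were all members, Kdm6b and up to 3 called genes per list with the block (else the smallest p). The 5 genes most correlated with Camk2a (log2 CPM, prior count 2) were named too. Camk2n1, Pcp4 and the markers beside them were named after their values were seen. Alternatives were no filter, a minimum mean of 5 CPM, RLE or upper-quartile factors, unscaled library totals, DESeq2 1.42.0, limma-voom (limma 3.58.1), the block, and leaving out libraries. Lengths, 3′ UTRs and promoters were matched by gene symbol only. Some sequences and 1 list's gene values are not reported here.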

Additional observations from a re-analysis of the deposited data

How the results depend on the processing

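Each of 478 log2 fold changes of the 10 CaM kinase genes and 10 named pathway genes, recomputed under 24 alternatives, kept its direction, and 57 gained a call. Camk2a was chosen for its rise, and the 10 pathway genes for their small p in the blocked fit of these data. Their kept directions and gained calls were therefore largely fixed in advance and are a description only. The replicate block called 1256 genes in all, 1 CaM kinase gene of the 9 tested and 4 pathway genes, against 1, 0 and 0 without it. With the block the same 3 counts were 1342, 1 and 4 with RLE factors, 1350, 1 and 4 with upper-quartile factors, 1598, 1 and 6 with no filter, 1276, 1 and 6 with library totals alone, 1440, 1 and 4 at a mean of at least 5 CPM, 3440, 4 and 14 with DESeq2, and 1394, 1 and 4 with limma-voom. The split of all calls with the block was 406 higher and 850 lower, and 723 higher and 553 lower with library totals alone. The 4 CaM kinase calls of DESeq2 with the block were Camkk1, Camk4 and Camk2b lower and Camk1d higher. Without the block library totals alone called 0 genes and DESeq2 called 567, 1 and 3. Leaving out 1 library without the block gave 0 genes in all and 0 in the family and the pathway. Leaving out 1 replicate number with the block gave 0, 53 and 1272 genes without replicates 1, 2 and 3, with 0 to 1 family genes and 0 to 5 pathway genes. With the longest transcript as length the control levels were 0.628 for Camk2a, 122 for Camk2b, 38.5 for Camk2d, 22.1 for Camk2g, 398 for Camk4, 9.72 for Camk1 and 81.1 CPM per kb for Camkk2, since that length is shorter than the exon union. The lowest count of a member was 32, for Camk1g in knockdown replicate 2.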
